A study of Mus musculus with 16 samples.

Results

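The 8 genes described here, Snai1, Snai2, Twist1, Twist2, Zeb1, Zeb2, Prrx1 and Tcf21, encode transcription factors of mesenchymal cells and were chosen by name, out of 22367 protein-coding genes in the mouse mm9 annotation. For each gene, every enriched region (island) in the gene body or within 50 kb on either side was collected from 16 island lists of chromatin immunoprecipitation and sequencing (ChIP-seq) in 3T3-L1 cells. 3T3-L1 is an established mouse preadipocyte line that forms adipocytes under MDI, a cocktail of isobutylmethylxanthine, dexamethasone and insulin. Acetylation of histone H3 at lysine 27 (H3K27ac) was profiled before differentiation (0 h) and after 48 h of it in cells carrying an empty retroviral vector (EV cells) and in cells carrying V5-tagged SETD5 (SETD5-V5 cells), with 2 libraries, A and B, in each of the 4 groups. SETD5-V5 itself was profiled at 0 h and 6 h (2 libraries each), and H3K4me1 (0 h and 48 h) and endogenous SETD5 (0 h and 6 h) have 1 library per time. All groups derive from the same line, the study describes the transgene as moderately expressed from a retroviral promoter of low strength, and it describes A and B as biological replicates. The labels name the SETD-V5 virus for the H3K4me1 libraries and for replicate B of the SETD5-V5 libraries, and no virus for replicate A.

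Snai1 and Snai2 (Snail and Slug) are zinc finger repressors that bind E2-boxes and switch off epithelial genes such as E-cadherin. Zeb1 and Zeb2 are zinc finger and homeodomain proteins that act on the same kind of sites, and Twist1 and Twist2 are basic helix-loop-helix factors of mesoderm and of fibroblasts. Prrx1 is a paired-related homeobox factor of limb and connective tissue mesenchyme, and Tcf21 is a basic helix-loop-helix factor of visceral mesenchyme. H3K27ac marks active promoters and enhancers, H3K4me1 marks enhancers that are active or poised, and SETD5 is a SET domain protein that associates with the NCoR and HDAC3 corepressor.

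Sequences are shown for 4 promoters whose islands carry the results, and for 2 distal sites that differed between times in EV cells. Promoters span the 300 bases before the 5' end of the gene record in mm9, read along the gene, and sites show their central 300 bases. Capitals mark an E2-box (CAGGTG), a C/EBP motif (TTGCNNAA) or an AP-1 motif (TGANTCA), each searched on both strands.
Snai1 promoter, chr2:167363395-167363694, plus strand: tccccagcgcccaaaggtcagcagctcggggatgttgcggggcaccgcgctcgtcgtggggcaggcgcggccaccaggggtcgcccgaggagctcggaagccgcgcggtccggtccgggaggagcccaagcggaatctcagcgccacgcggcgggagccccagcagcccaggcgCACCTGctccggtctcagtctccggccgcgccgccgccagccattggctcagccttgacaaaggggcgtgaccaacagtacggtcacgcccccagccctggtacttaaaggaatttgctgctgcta
Snai2 promoter, chr16:14705645-14705944, plus strand: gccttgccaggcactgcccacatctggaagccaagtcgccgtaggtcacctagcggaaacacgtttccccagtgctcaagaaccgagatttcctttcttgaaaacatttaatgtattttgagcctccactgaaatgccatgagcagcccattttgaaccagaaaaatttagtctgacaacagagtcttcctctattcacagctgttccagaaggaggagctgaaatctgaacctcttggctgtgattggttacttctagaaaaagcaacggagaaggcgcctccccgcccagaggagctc
Twist1 promoter, chr12:34642236-34642535, plus strand: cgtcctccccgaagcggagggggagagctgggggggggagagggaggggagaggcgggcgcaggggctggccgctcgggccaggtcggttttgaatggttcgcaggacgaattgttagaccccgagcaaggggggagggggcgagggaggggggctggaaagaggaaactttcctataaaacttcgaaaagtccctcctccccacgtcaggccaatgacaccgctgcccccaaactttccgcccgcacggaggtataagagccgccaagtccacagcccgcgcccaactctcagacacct
Zeb2 promoter, chr2:44972916-44973215, minus strand: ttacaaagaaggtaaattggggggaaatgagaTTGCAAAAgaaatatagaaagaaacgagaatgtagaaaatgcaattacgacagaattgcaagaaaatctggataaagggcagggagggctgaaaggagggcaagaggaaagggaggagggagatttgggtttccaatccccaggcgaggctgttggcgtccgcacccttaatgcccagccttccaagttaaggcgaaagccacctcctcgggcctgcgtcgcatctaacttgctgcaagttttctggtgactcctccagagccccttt
Twist1 site 21.3 kb downstream, chr12:34666251-34666550, plus strand: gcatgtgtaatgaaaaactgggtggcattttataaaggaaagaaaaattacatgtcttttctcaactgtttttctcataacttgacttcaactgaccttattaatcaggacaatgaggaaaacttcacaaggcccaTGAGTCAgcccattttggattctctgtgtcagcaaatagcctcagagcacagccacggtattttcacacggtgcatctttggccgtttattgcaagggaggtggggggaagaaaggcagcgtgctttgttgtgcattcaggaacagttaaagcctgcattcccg
Zeb2 site 12.1 kb upstream, chr2:44985651-44985950, plus strand: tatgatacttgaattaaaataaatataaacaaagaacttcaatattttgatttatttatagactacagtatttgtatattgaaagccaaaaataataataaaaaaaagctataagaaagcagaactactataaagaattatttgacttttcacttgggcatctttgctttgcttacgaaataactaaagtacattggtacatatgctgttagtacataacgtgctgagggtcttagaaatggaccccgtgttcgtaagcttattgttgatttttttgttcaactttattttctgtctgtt

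The Snai1 promoter held 1 E2-box, a motif that Snail proteins themselves bind, and the Zeb2 promoter held 1 C/EBP motif. No match to the 3 motifs was found in the windows of Snai2 and Twist1. The Twist2 promoter held 1 C/EBP motif and the Zeb1 promoter 2 E2-boxes, and the windows of Prrx1 and Tcf21 held no match. Among 22361 promoters of the same length, 20.3% held an E2-box, 11.2% a C/EBP motif and 7.12% an AP-1 motif. GC content was 70.3% at Snai1 and 64.7% at Twist1 against 49.0% at both Snai2 and Zeb2, with a median of 53.3% over all promoters. Of the distal windows, the Twist1 site held 1 AP-1 motif, as did 11.5% of 53151 H3K27ac site centres, and the Zeb2 site held none of the 3 motifs at a GC content of 27.7% (median of all centres 45.3%).

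The H3K27ac lists held 31292 to 39949 islands and the SETD5-V5 lists 6666 to 35573, with the fewest at 0 h in replicate B (6666 islands, 35.3 Mb) and the most at 6 h in replicate A (35573 islands, 196 Mb). Reads behind the islands are not in these lists, so island number and length are the measurements. Promoters of 6 to 7 of 7 preadipocyte or fibroblast markers carried H3K27ac islands in every list, against 0 of 4 endothelial, 0 of 4 muscle and 0 of 3 annotated blood cell markers and 0 to 1 of 5 epithelial markers. Of 7 adipocyte markers, 3 carried one at 0 h in every list, 6 to 7 at 48 h in EV cells and 5 at 48 h in SETD5-V5 cells.

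Across both times and cell types, 7 of the 8 genes carried an H3K27ac island at their promoter in all 8 H3K27ac lists, as did 42.1% of all protein-coding genes, and Tcf21 carried none. Tcf21 (chr10:22537085-22539934) had no island of any mark in its 103 kb window in all 16 lists, as was the case for 3419 of the 22367 windows, its own included. Zeb2 (chr2:44839154-44972915, minus strand) stood out by score. Its promoter island in EV cells at 0 h was 18800 bp in replicate A and 16200 bp in replicate B, and only 0.0297% and 0.0254% of the islands in those lists scored higher. Prrx1 (chr1:165175247-165243841, minus strand) followed, with islands of 10600 and 12000 bp over its 5' end that 0.202% and 0.0959% of islands outscored. The scores and lengths of these islands rank the signal within a list and are not levels of the mark per nucleosome.

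Snai1 (chr2:167363695-167368314) was the most densely covered member window in EV cells at 0 h. H3K27ac islands covered 57.8% and 48.2% of it in replicates A and B, and 0.174% and 0.259% of all windows were covered more. The same window holds parts of Spata2 and Rnf114, so part of this length belongs to other genes. Prrx1 came next at 37.3% and 33.5%, then Twist2 (chr1:93698038-93744605) at 27% and 29.2%. Zeb2 reached 22.5% and 14.2% of its longer window. Twist1 (chr12:34642536-34644682), Zeb1 (chr18:5591858-5775465) and Snai2 (chr16:14705945-14709488) were covered less than the other members with islands in each list, between 5.60% and 13.9%. These values still lay above the medians of 4.23% and 3.70% over all windows in the 2 lists. Between 14.2% and 39.3% of all windows were covered more than these members. Both Twist1 values lay above those of Zeb1 and Snai2, whose replicates overlapped.

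**Figure D1:**
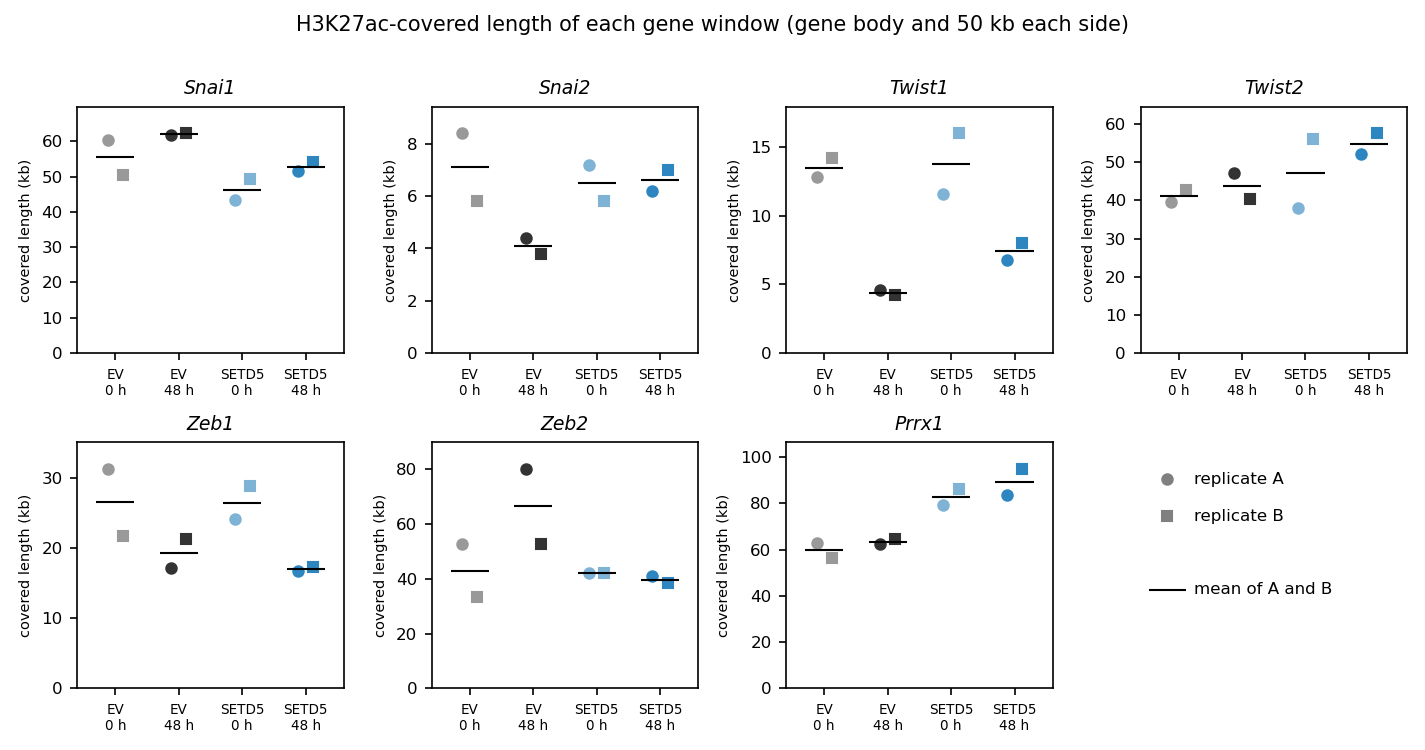
H3K27ac-covered length (kb, vertical axis from 0) of 7 gene windows by time (0 h or 48 h) and cell type (EV, or SETD5 for SETD5-V5 cells). Circles and squares are replicates A and B and lines are their means. Twist1 falls in both cell types, Snai2 in EV cells, and the Prrx1 values of SETD5-V5 cells lie above those of EV cells.

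During differentiation of EV cells, Twist1 lost most of its H3K27ac-covered length and Snai2 lost part of it. Twist1 was covered over 12.8 and 14.2 kb at 0 h and over 4.60 and 4.20 kb at 48 h. The groups did not overlap, and the difference was -1.42 (SE 0.18) on the log2(covered kb + 1) scale, with an adjusted p of 0.00143 in limma over 18201 windows. Snai2 was covered over 8.40 and 5.80 kb at 0 h and over 4.40 and 3.80 kb at 48 h. Both values at 48 h lay below both at 0 h, and the log2 difference was -0.65 (SE 0.19, limma adjusted p = 0.0406). The Snai2 call was lost when any 1 of the 8 H3K27ac libraries other than EV 0 h replicate B was left out, including libraries outside the comparison, and also with windows of 5 kb, with islands above the median score and without the filter (limma adjusted p = 0.239, 0.288 and 0.0875). So 2 of 7 tested members were called lower and 0 higher, where limma called 12.8% of all windows lower and 22.3% higher.

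The remaining 5 members did not pass the test in EV cells. Zeb1 was covered over 31.4 and 21.8 kb at 0 h and 17.2 and 21.4 kb at 48 h (log2 difference -0.43, SE 0.21, limma adjusted p = 0.163). Zeb2 had higher values at 48 h, 80.2 and 52.8 kb against 52.6 and 33.2 kb (log2 difference 0.63, SE 0.27, limma adjusted p = 0.118). Its replicates differed widely, and the lower value at 48 h lay just above the higher one at 0 h. Snai1, Twist2 and Prrx1 had log2 differences of 0.16, 0.08 and 0.09, with limma adjusted p of 0.423 to 0.794, against a median of 0.12 over all windows. By non-overlap of the replicates alone, 3 members were lower (Snai2, Twist1, Zeb1) and 2 higher (Snai1, Zeb2), where 22.9% of windows were lower and 39.3% higher.

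In SETD5-V5 cells, Twist1 again fell by 48 h and Snai2 did not pass the test. Twist1 covered 11.6 and 16 kb at 0 h and 6.80 and 8 kb at 48 h, a log2 difference of -0.80 (SE 0.18, limma adjusted p = 0.0190). The groups did not overlap, but the call was lost without SETD5-V5 48 h replicate A or B or without 0 h replicate B, with windows of 5 kb (-0.32, limma adjusted p = 0.149) and with islands above the median score (-0.42, limma adjusted p = 0.329). Snai2 covered 7.20 and 5.80 kb at 0 h and 6.20 and 7 kb at 48 h, with overlapping groups and a log2 difference of 0.02 (SE 0.19, limma adjusted p = 0.966). Zeb1 covered 24.1 and 28.9 kb and then 16.8 and 17.4 kb (log2 difference -0.60, SE 0.21, limma adjusted p = 0.0823). The groups did not overlap, and the difference missed the threshold.

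Zeb2 in SETD5-V5 cells covered 42.2 kb in both libraries at 0 h and 41.0 and 38.4 kb at 48 h (log2 difference -0.09, SE 0.27, limma adjusted p = 0.862). Snai1, Twist2 and Prrx1 had log2 differences of 0.19, 0.24 and 0.10 and did not pass. In all, 1 of 7 members was called lower and 0 higher, where 11% of windows were called lower and 13.6% higher. By non-overlap, Twist1, Zeb1 and Zeb2 were lower and Snai1 higher, against 30.1% and 31.4% of all windows.

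Between the cell types, none of the 7 tested members passed at 0 h or at 48 h. At 0 h, Prrx1 was covered over 62.8 and 56.4 kb in EV cells and 79.4 and 86.2 kb in SETD5-V5 cells, without overlap (log2 difference 0.47, SE 0.13, limma adjusted p = 0.159). At 48 h the values were 62.2 and 64.4 kb in EV cells and 83.4 and 95.0 kb in SETD5-V5 cells (log2 difference 0.49, SE 0.13, limma adjusted p = 0.0626). Prrx1 was thus longer in all 4 SETD5-V5 libraries than in all 4 EV libraries, without a call. Twist1 at 48 h was 0.63 higher on the log2 scale in SETD5-V5 cells (SE 0.18, limma adjusted p = 0.0665), and scaling each list to its total covered length brought Twist1 and Prrx1 past the threshold. Snai2 (0.58, SE 0.19, limma adjusted p = 0.109) and Zeb2 (-0.70, SE 0.27, limma adjusted p = 0.145) did not overlap between cell types at 48 h either. Background rates were 1.25% of windows called higher and 0.802% lower at 0 h, and 5.83% higher and 6.27% lower at 48 h.

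By non-overlap of replicates at 48 h, Snai2, Twist1, Twist2 and Prrx1 were longer in SETD5-V5 cells (22% of all windows) and Snai1 and Zeb2 shorter (32.5% of all windows). At 0 h, 1 member was longer (Prrx1, background 24.4%) and 1 shorter (Snai1, background 13.9%). The difference of the 48 h changes between cell types was tested directly as an interaction. It was 0.67 for Snai2 (SE 0.28, limma adjusted p = 0.248), 0.62 for Twist1 (SE 0.25, limma adjusted p = 0.246) and -0.71 for Zeb2 (SE 0.38, limma adjusted p = 0.367). No member passed, where 1.51% of windows were called higher and 1.99% lower, so a call in one cell type and not in the other does not show that the Snai2 changes differ.

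**Figure D2:**
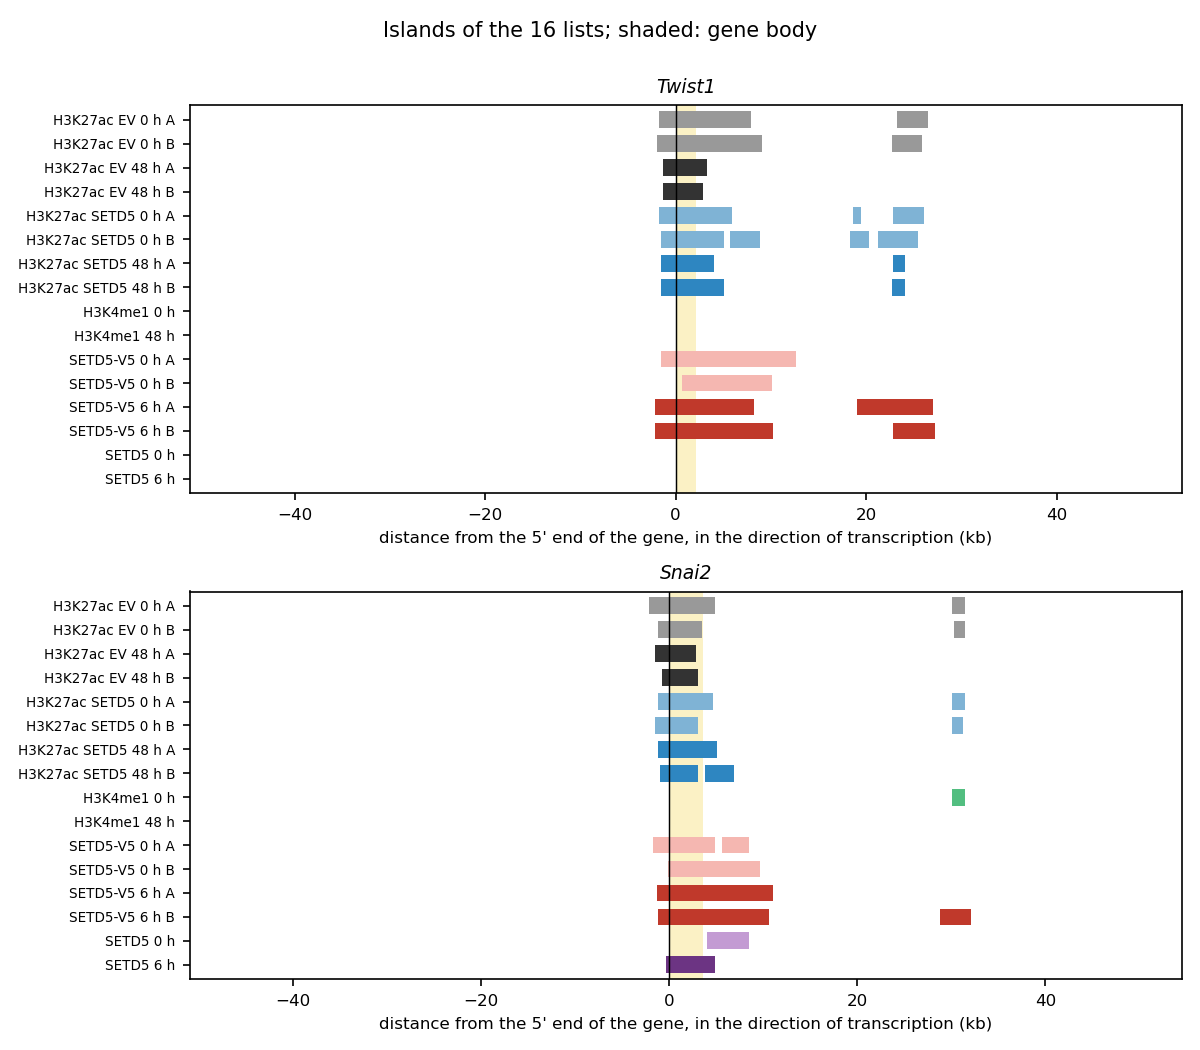
Islands of all 16 lists around Twist1 and Snai2, by distance in kb from the 5' end of the gene along transcription. Rows are libraries, bars are islands and the shaded band is the gene body. The site 21.3 kb downstream of Twist1 is present in all H3K27ac libraries but those of EV cells at 48 h.

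To resolve the windows into sites, islands of the 8 H3K27ac lists that overlapped by at least 1 bp were merged, giving 60 sites in the member windows out of 53157 in the genome. Zeb2 had 19 of them, Prrx1 14, Zeb1 9, Twist2 7, Snai1 6, Twist1 3 and Snai2 2. In EV cells, 8 sites were lost by 48 h (an island in both libraries at 0 h and in neither at 48 h) where 14.1% of all sites were, and 4 were gained where 11% were. In SETD5-V5 cells 7 were lost (background 11.6%) and 2 gained (background 12.3%). With only islands above the median score of their list, 0 of 36 sites were lost in EV cells, where 4253 of 26502 sites in the genome were. Of the 8 lost sites, 2 had an island above that median in 1 EV library at 0 h, at Twist1 and Zeb1, and 0 had one in both.

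Besides its promoter island, Twist1 had a site at chr12:34663801-34669000, 21.3 kb downstream and outside any protein-coding gene, whose centre is printed above. Its islands covered 3200 bp in both EV libraries at 0 h, and both EV libraries had none at 48 h. In SETD5-V5 cells they covered 3200 and 4200 bp at 0 h and 1200 and 1400 bp at 48 h, so it was shorter at 48 h but still listed. SETD5-V5 islands overlapped it in both libraries at 6 h (5200 and 3600 bp) and in neither at 0 h. Of the 8 member sites lost in EV cells, 3 were overlapped in both libraries at 6 h and 1 in both at 0 h. Genome-wide, 23.3% and 3.23% of the sites lost in EV cells were. Snai2 had 1 distal site, at chr16:14736001-14737400, 30.1 kb downstream. It was lost in both cell types, from 1400 and 1200 bp in EV cells and 1400 and 1200 bp in SETD5-V5 cells to none, and its H3K4me1 island was listed at 0 h (1400 bp) and not at 48 h.

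Zeb1 had 3 sites lost in EV cells, 46.9 and 3.5 kb upstream of its 5' end and 26.7 kb downstream in the gene body, and the upstream ones lie within the annotated Gm10125. The site at 3.5 kb was kept in SETD5-V5 cells (2800 and 3000 bp at 0 h, 1200 and 1600 bp at 48 h) and the others were lost there too. Twist2 lost a site 41.4 kb downstream in both cell types. Right next to it, 35.2 kb downstream, it gained one in EV cells of 4400 and 1400 bp. Prrx1 lost sites 112 and 103 kb downstream, past its 3' end, in EV cells, of which the second was kept in SETD5-V5 cells, and gained one 80.6 kb downstream in both.

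Zeb2 gained sites at chr2:44985001-44986600 and chr2:45009801-45011800, 12.1 and 36.9 kb upstream, in EV cells. At 48 h the nearer site covered 1600 and 1400 bp in the EV libraries and the farther one 2000 and 800 bp. Neither had an H3K27ac island in any SETD5-V5 library. The nearer one was overlapped by SETD5-V5 islands in both libraries at 6 h (1600 bp each) and by H3K4me1 at 0 h (400 bp) and 48 h (1600 bp). Genome-wide, SETD5-V5 overlapped 36.5% of the sites gained in EV cells in both libraries at 6 h. H3K4me1 overlapped 37.6% of them at 0 h and 62.7% at 48 h. Of the 8 member sites lost in EV cells, 4 were also lost in SETD5-V5 cells and 3 were kept, where 47.1% and 22.0% of the 7472 sites lost in EV cells genome-wide did so. Of the 4 gained, 2 were absent and 1 was gained in SETD5-V5 cells, against 23.4% and 48.4% of 5863.

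**Figure D3:**
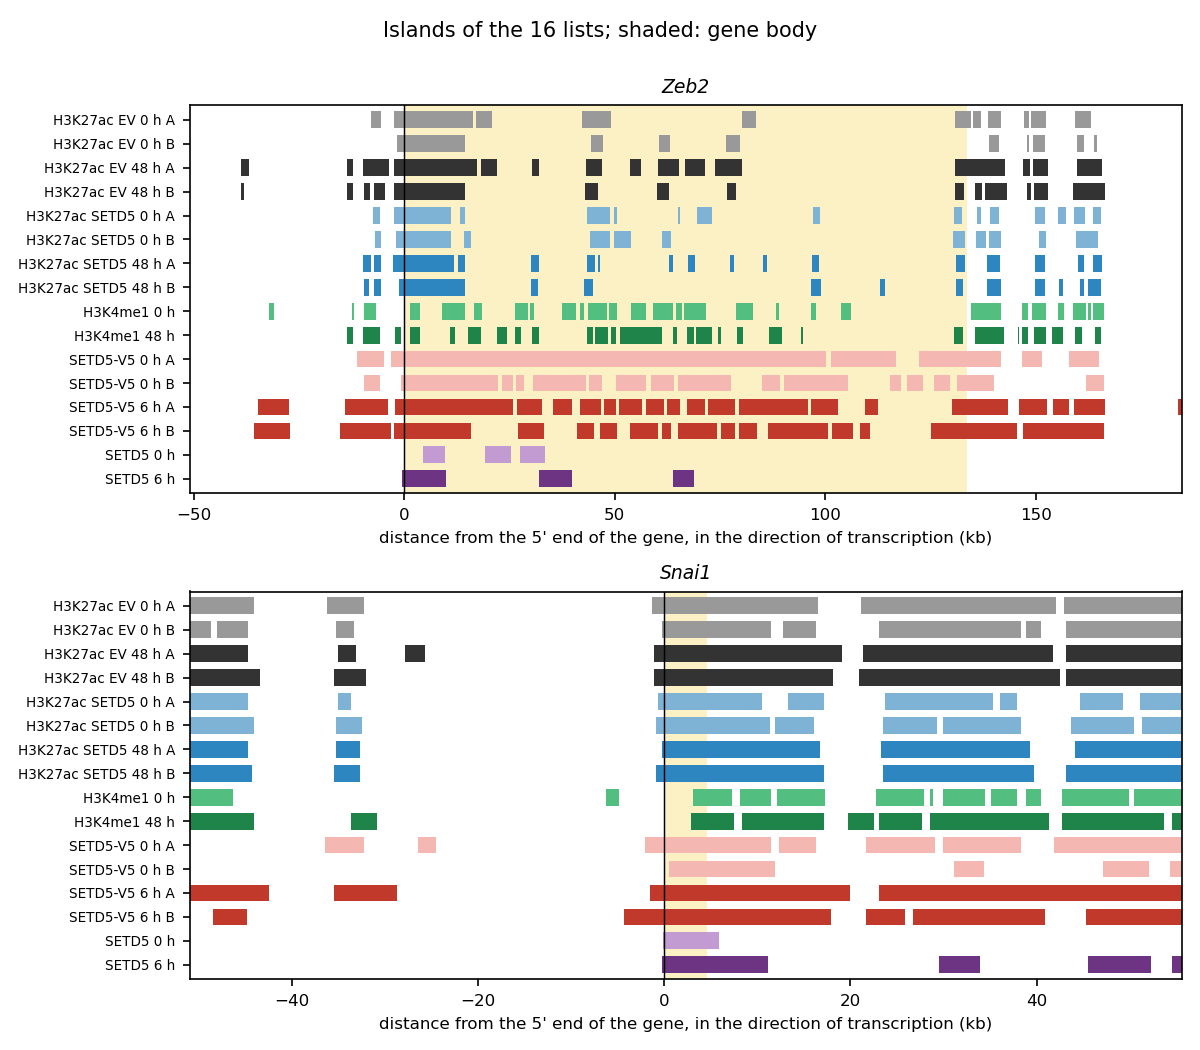
Islands of all 16 lists around Zeb2 and Snai1, by distance in kb from the 5' end of the gene along transcription. Rows are libraries, bars are islands and the shaded band is the gene body. SETD5-V5 islands span most of the Zeb2 gene body at 0 h and 6 h, and endogenous SETD5 islands lie at the start of Snai1 at both times.

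Of the promoter islands, that of Twist1 was shorter at 48 h than at 0 h in EV cells, and more islands outscored it in both cell types. Its island was 9600 and 11000 bp long in EV cells at 0 h and 4600 and 4200 bp at 48 h, and the share of islands scoring higher was 1.33% and 1.18% and then 7.16% and 7.38%. In SETD5-V5 cells it was 7600 and 6600 bp at 0 h and 5600 and 6600 bp at 48 h, with 0.869% and 1.52% and then 2.16% and 2.56% of islands scoring higher. Length of this island therefore overlapped between times in SETD5-V5 cells and not in EV cells, while the ranks did not overlap in either. The merged site there was covered over 7600 and 9800 bp at 0 h and 5600 and 6600 bp at 48 h in SETD5-V5 cells, without overlap.

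The Snai2 promoter island was 7000 and 4600 bp long in EV cells at 0 h and 4400 and 3800 bp at 48 h. The share of islands scoring higher was 8.33% and 8.03% and then 20.1% and 19.6%. In SETD5-V5 cells, 5.98% and 7.52% of islands scored higher before differentiation, and 9.72% and 10.3% after 48 h. In both cell types a larger share of the list outscored it at 48 h, and the times did not overlap. The Snai1 island was longer at 48 h in all libraries, at 20200 and 19200 bp against 17800 and 11800 bp at 0 h in EV cells, and at 17000 and 18000 bp against 11200 and 12200 bp in SETD5-V5 cells. Some lists held a second island beside it at 0 h. The merged site was covered over 17800 and 15400 bp at 0 h and 20200 and 19200 bp at 48 h in EV cells. In SETD5-V5 cells these were 15000 and 16400 bp and then 17000 and 18000 bp, a smaller difference. Fewer islands outscored the Snai1 promoter island at 48 h, 0.259% and 0.241% against 0.599% and 0.468% in EV cells, and 0.317% and 0.380% against 1.32% and 1.27% in SETD5-V5 cells.

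The Zeb2 promoter island was 19800 and 17000 bp long at 48 h in EV cells, overlapping its lengths at 0 h, and in SETD5-V5 cells 13600 and 13000 bp at 0 h and 14400 and 15600 bp at 48 h. More islands outscored it by then, 0.121% and 0.136% in EV cells and 0.0921% and 0.124% in SETD5-V5 cells. The island at the Prrx1 5' end was 10600 and 12000 bp long at 0 h in EV cells and 19600 and 15200 bp at 48 h. In SETD5-V5 cells it was 11000 and 10400 bp at 0 h and 20000 and 19400 bp at 48 h. The merged site there was covered over 19600 and 22600 bp and then 25400 and 24200 bp in SETD5-V5 cells. Much of the added island length was thus already covered by neighbouring islands at 0 h. In EV cells the site was covered over 17600 and 12000 bp and then 19600 and 16600 bp, and the times overlapped. Although the Prrx1 5' end island was longer in EV cells at 48 h, more islands outscored it, 0.470% and 0.414% against 0.202% and 0.0959% at 0 h. In SETD5-V5 cells the shares overlapped between times, at 0.0576% and 0.0874% and then 0.0691% and 0.0887%. Zeb1 islands (3200 to 4800 bp) overlapped in length between all groups. In EV cells 6.79% and 6.13% of islands outscored the Zeb1 island at 0 h and 4.52% and 4.45% at 48 h. Twist2 islands were 7400 and 7200 bp at 0 h and 8600 and 7800 bp at 48 h in EV cells, without overlap. More islands outscored the Twist2 island in EV cells at 48 h, 4.37% and 4.26% against 3.11% and 3.09% at 0 h. In SETD5-V5 cells Twist2 islands were 6800 to 10000 bp, where the times overlapped. The ranks of Zeb1 and Twist2 also overlapped between times in SETD5-V5 cells. Lists differ in their number of islands, so ranks were also taken as a share of 31000 islands in each list, an alternative chosen after seeing the data. On that scale 9.06% and 9.19% scored higher than the Snai2 island at 0 h and 20.3% and 21.0% at 48 h in EV cells, and 7.71% and 8.88% and then 12.3% and 13.1% in SETD5-V5 cells. The ranks of Snai1, Twist1 and Zeb2 did not overlap between times in either cell type on that scale either. By the longest promoter island, ranks did not overlap between times for 6 members in EV cells and 5 in SETD5-V5 cells. For Prrx1 the longest island lay over different start sites in different lists. By that island Prrx1 separated in SETD5-V5 cells and not in EV cells, the reverse of its 5' end island above. The counts therefore depend on the island taken. The share of all promoter islands that separate likewise was not determined, so these counts do not set the members apart. These ranks and lengths are descriptions of single islands and were not tested.

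**Figure D4:**
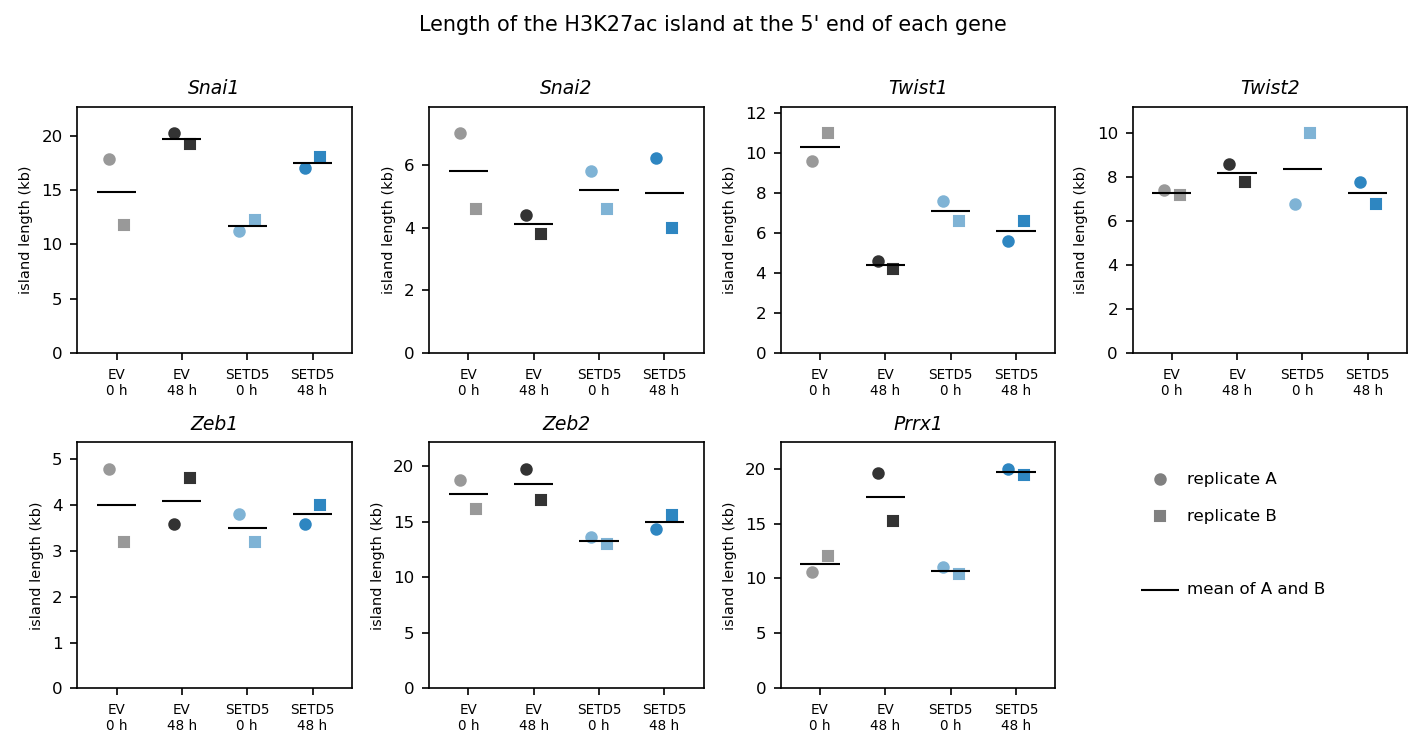
Length in kb (vertical axis from 0) of the H3K27ac island over the 5' end of 7 genes by time and cell type (EV, or SETD5 for SETD5-V5 cells). Circles and squares are replicates A and B and lines are their means. Twist1 islands are 9.6 and 11 kb at 0 h and 4.6 and 4.2 kb at 48 h in EV cells, and Snai1 and Prrx1 islands are longer at 48 h. Each island is shown singly, without neighbouring islands of the same merged site.

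SETD5-V5 covered much of several member windows already before differentiation. At 0 h it covered 156 and 115 kb of the 234 kb Zeb2 window, and only 0.469% and 0.317% of all windows were covered over a larger share, while the median window had no SETD5-V5 island. A single island of 103200 bp spanned the Zeb2 promoter in replicate A, and one of 23200 bp in replicate B. Prrx1 was covered over 84.2 and 58.2 kb, Twist2 over 65.0 and 48.8 kb and Snai1 over 52.3 and 19.9 kb. At Prrx1, Twist2 and Snai1, 0.948 to 2.94% of all windows were covered over a larger share. Coverage was lower at Twist1 (14.2 and 9.40 kb) and Snai2 (9.40 and 9.80 kb). Zeb1 had 16.4 kb in replicate A and none in replicate B.

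At 6 h of differentiation, SETD5-V5 covered 144 and 140 kb at Zeb2, 100 and 91.6 kb at Prrx1, 80 and 56.8 kb at Twist2 and 67.2 and 53.5 kb at Snai1. It covered 18.4 and 16.8 kb at Twist1, 12.4 and 15 kb at Snai2 and 20.8 and 12.8 kb at Zeb1. Snai1, Snai2, Twist1 and Prrx1 were longer in both libraries at 6 h than in both at 0 h, where 56.4% of windows were, and no member was shorter, where 1.31% were. Log2 differences ran from 0.08 (SE 0.48) at Zeb2 to 0.87 (SE 0.69) at Snai1, and reached 2.06 (SE 1.62) at Zeb1, which had no island in 1 library at 0 h. Limma called 0 of 7 members (adjusted p 0.444 to 0.902) and 0% of 16393 windows in either direction, that is 0 higher and 0 lower, with 4541 windows at an unadjusted p under 0.05.

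The SETD5-V5 count depends on the settings, since 6 of the alternatives called 618 to 2686 windows, and 0 members, and leaving out 6 h replicate A or B raised the count to 3257 or 5684, again with 0 members. The median difference was 0.47 over the 7 members and 1.63 over all windows, and the lists at 6 h are longer throughout. When each list was scaled to its total covered length, the differences at 6 of the 7 members turned negative, from -1.54 at Zeb2 to -0.72 at Snai1, as did 22.0% of all 16393 windows. That scaling lowers every difference, so a change of sign marks the members whose unscaled difference was small against the growth of the lists. The number of islands in a list moved with time and replicate, and its part in these differences was not tested.

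**Figure D5:**
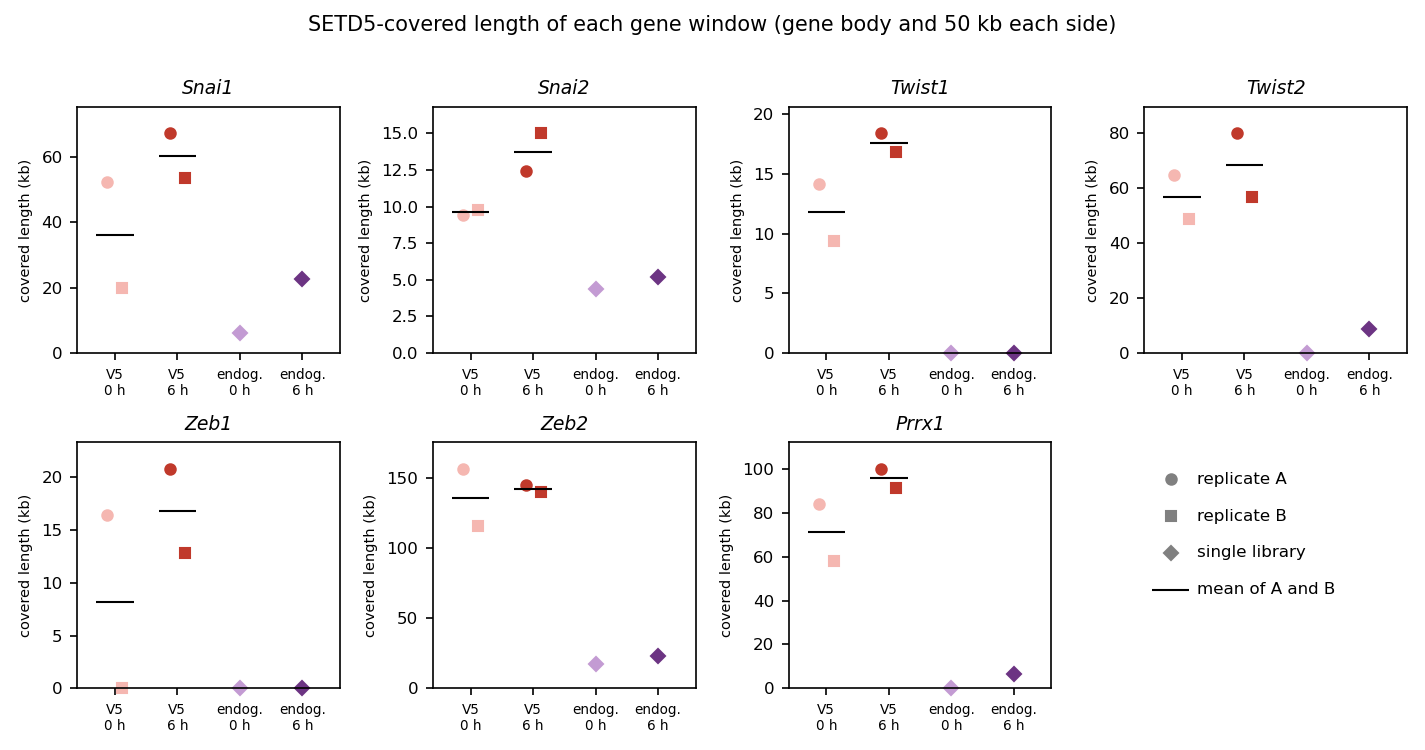
SETD5-covered length (kb, vertical axis from 0) of 7 gene windows, for SETD5-V5 (V5) and endogenous SETD5 (endog.) at 0 h and 6 h. Circles and squares are replicates A and B with their mean as a line, and diamonds are single libraries. Zeb2 has the longest coverage of the 7 in each of these 6 libraries.

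Endogenous SETD5, with 1 library per time and no replicate check, had islands in the windows of 3 of the 8 genes at 0 h and 5 at 6 h, where 11.2% and 20.8% of all windows had one. Its lists hold 2132 and 3293 islands. At Snai1, a locus that the study itself shows as a browser example of endogenous SETD5, the promoter island was 6000 bp long at 0 h and 11400 bp at 6 h. The covered length of the Snai1 window was 6.00 and 22.7 kb. Zeb2 was covered over 17.4 and 23.2 kb and Snai2 over 4.40 and 5.20 kb. Twist2 and Prrx1 had none at 0 h and 8.60 and 6.60 kb at 6 h, in each case as 1 island over the promoter. Twist1, Zeb1 and Tcf21 had none at either time, although SETD5-V5 islands covered Twist1 in all 4 libraries. The difference between the SETD5 lists in island number cannot be told apart from time here.

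H3K4me1, also from 1 library per time, covered 71.4 and 66.0 kb at Zeb2, 49.2 and 60.2 kb at Twist2, 43.8 and 53.4 kb at Snai1, 39.4 and 31.8 kb at Prrx1 and 27.6 and 29.0 kb at Zeb1, at 0 h and 48 h. Snai2 had 1.40 kb at 0 h and none at 48 h, and Twist1 none at either time. The promoters of Snai1, Snai2, Twist1 and Zeb1 had no H3K4me1 island at the 5' end in either list. Of the 27 member H3K27ac sites kept in EV cells, 24 overlapped H3K4me1 at 0 h and 17 overlapped SETD5-V5 in both libraries at 0 h, where 70.5% and 16.2% of the 18647 kept sites in the genome did. At 6 h SETD5-V5 overlapped 24 of the 27, against 58.9% of all kept sites. Sites in the same window share islands, so these counts are not independent. Overlap needed only 1 bp, and kept member sites were up to 26000 bp long (at Prrx1). Site length was not matched between the members and the genome.

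Related genes were followed as lists chosen with earlier results of these data known. Of 31 other mesenchymal transcription factors, 20 to 21 carried a promoter H3K27ac island in each H3K27ac list (64.5 to 67.7%, where 46.1 to 49.0% of all protein-coding genes did). In EV cells, 3 of the 29 with a tested window were called higher by 48 h and 3 lower, where 22.3% of all windows were higher and 12.8% lower, with a median log2 difference of 0.24 against 0.12 over all windows. Foxc1, a forkhead factor of mesenchyme, rose most (1.78, limma adjusted p = 0.000469), and Osr2, an odd-skipped related zinc finger factor, fell most (-1.69, limma adjusted p = 0.000906). In SETD5-V5 cells 5 rose and 3 fell, where 13.6% and 11% of all windows did. At 48 h, 4 of the 29 were higher in SETD5-V5 than in EV cells (Tbx15, Gsc, Id4 and Osr2) and 0 lower, where 5.83% of all windows were higher and 6.27% lower. The interaction was called for 4 genes of the list (Gsc, Id4, Msx2 and Osr2), 3 higher and 1 lower, against 1.51% and 1.99% of all windows, and was highest for Osr2 (1.53, limma adjusted p = 0.0350).

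Of 17 epithelial genes that Snail and Zeb factors are known to repress, 1 to 3 carried a promoter H3K27ac island in each list. Of all protein-coding genes, 46.1 to 49.0% did. In EV cells 4 were called higher by 48 h and 2 lower, near the shares of 22.3% and 12.8% over all windows, and values ran from Krt19, an epithelial keratin (3.15, limma adjusted p = 0.000127), to Cldn1, a tight junction claudin (-1.40, limma adjusted p = 0.00360). In SETD5-V5 cells 3 rose and 1 fell (13.6% and 11% of all windows), and the median of the list was 0.04 in EV and -0.02 in SETD5-V5 cells. Of 16 mesenchymal effector genes, 15 to 16 carried a promoter island, where the same 46.1 to 49.0% of all genes did. In EV cells 1 was called higher and 4 lower (22.3% and 12.8% of all windows). In SETD5-V5 cells 1 was higher and 3 lower (13.6% and 11% of all windows). Acta2, smooth muscle actin, and the fibrillar collagen chains Col1a2 and Col3a1 were called lower in both cell types. Acta2 had the lowest value of the list in EV cells (-1.15, limma adjusted p = 0.00341) and Col1a2 in SETD5-V5 cells (-1.14, limma adjusted p = 0.00387). For SETD5-V5 at 6 h, limma called 0 of 16393 windows, so no gene of the 3 lists could pass. The list medians were 1.73, 1.13 and 0.85, against 1.63 over all windows.

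For 6 of the members, the protein-coding gene with the most similar covered lengths over the 16 libraries was found by Euclidean distance on the log2(kb + 1) scale, leaving out overlapping windows. It was Amotl2 for Snai1 (distance 1.16), Gga1 for Twist2 (0.93), Slc7a5 for Zeb1 (0.93), Cpeb2 for Snai2 (1.82), Cbx5 for Zeb2 (1.90) and Crebzf for Twist1 (2.14). Of these 6 nearest genes, that of Twist1 was the farthest.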

How the data were processed

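ChIP-seq of H3K27ac (8 libraries), SETD5-V5 (4), H3K4me1 (2) and endogenous SETD5 (2) from 3T3-L1 cells was deposited as 1 island list per library. The authors aligned reads (ELAND or Bowtie2, mm9), ran SICER on each library separately, and each deposited list gives chromosome, start, end and a score, the caller's own value, whose scale the lists do not state. Scores were used only to rank islands within a list. Reads and depth are not in the lists, so no counting interval can be given.

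Windows were gene bodies with 50 kb on each side for 22367 protein-coding genes of GENCODE vM1 (mm9). Covered kb per window was compared as log2(covered kb + 1) with limma 3.58.1 in R 4.3.3, over windows with an island in at least 1 library of the fit, with Benjamini-Hochberg adjustment over all windows and a threshold of 0.05, two-sided and without covariates. The 8 H3K27ac libraries shared 1 fit and the 4 SETD5-V5 libraries another. In data simulated for the EV comparison on 18200 windows, changes were planted only in windows of higher mean coverage. There, 49.5% of planted log2 changes of 1 and 92.5% of those of 2 were recovered, and 5.44% of calls were false. Recovery in sparsely covered windows was not assessed. A promoter island overlapped 1 kb upstream to 100 bp downstream of a start site by at least 1 bp. Groups came from the labels, and the p-values measure the spread between 2 libraries per group. The members and lists were chosen with earlier results of these data known. The genes named are the 8 members, the nearest gene to each (that of Prrx1 is not reported here), and in each list those called or with the highest and lowest difference. Alternatives changed the islands used, the pseudocount, the filter, the window, the scaling, a replicate term and the libraries.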

Additional observations from a re-analysis of the deposited data

Results flagged for a closer look

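Zeb2 was singled out because its H3K27ac-covered length moved in opposite directions in every library of the cell types. In EV cells both values at 48 h (80.2 and 52.8 kb) lay above both at 0 h (52.6 and 33.2 kb), and in SETD5-V5 cells both values at 48 h (41.0 and 38.4 kb) lay below both at 0 h (42.2 kb each). The interaction was -0.71 on the log2 scale (SE 0.38), with a limma adjusted p of 0.367, so the difference between the cell types did not pass the test. Such opposite movement was seen at 1 of 7 members and at 795 of 18201 windows (4.37%).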

How the results depend on the processing

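Only 2 libraries per group limit every test, and leaving out 1 of them leaves a lone library that is assumed to vary like the other groups. Without each library in turn, the number of windows called ran from 4442 to 5800 for EV cells over time, from 2317 to 4399 for SETD5-V5 cells over time, from 156 to 265 between cell types at 0 h, from 575 to 1911 at 48 h, from 198 to 574 for the interaction and from 0 to 5684 for SETD5-V5 at 6 h. Members called ran from 1 to 2 in EV cells and from 0 to 1 in SETD5-V5 cells, and were 0 in the other 4 comparisons. Member sites gained ran from 5 to 10 in EV cells and were 6 in SETD5-V5 cells with either letter left out, and sites lost ran from 10 to 11 and were 10. A site is then classed from 1 library per time, a looser rule that also raised the genome-wide counts. In EV cells 16.3% of all sites were gained without A and 15.5% without B, against 11.0% with both. The shares lost were 19.9% and 19.6%, against 14.1%.

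With windows of 5 kb, 3540 windows were called in EV cells, 2547 in SETD5-V5 cells and 1211 between cell types at 48 h, with 0 members in SETD5-V5 cells and with Zeb1 in place of Snai2 beside Twist1 in EV cells. Islands above the median score gave 865 windows at 0 h between cell types, 1405 for the interaction and 1462 for SETD5-V5, with 1 member called in EV cells (Twist1) and with Zeb1 in place of Twist1 in SETD5-V5 cells. Without the filter the counts were 197 at 0 h, 1185 at 48 h, 367 for the interaction and 1468 for SETD5-V5, with 1 member in EV cells. Scaling to total covered length gave 683 at 0 h, 1153 for the interaction and 618 for SETD5-V5, with 2 members called in SETD5-V5 cells (Twist1 and Zeb1) and 2 between cell types at 48 h (Twist1 and Prrx1). Equal numbers of islands gave 911 windows for SETD5-V5 and 2 members in SETD5-V5 cells over time, a pseudocount of 0.2 kb gave 2686 and windows covered in at least 2 libraries gave 1346. The cause was not tested.

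Member sites gained in EV cells were 2 when islands within 1000 bp were merged, and those gained in SETD5-V5 cells were 4 with equal numbers of islands, 1 with islands above the median score and 1 when merged. Sites lost in SETD5-V5 cells were 4 with islands above the median score and 4 when merged, and those lost in EV cells were 0 with islands above the median score.

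Log2 differences changed sign in these cases. Under scaling, SETD5-V5 differences were -0.72 at Snai1, -1.05 at Snai2, -0.97 at Twist1, -1.35 at Twist2, -1.54 at Zeb2 and -1.17 at Prrx1. With equal numbers of islands they were -0.025 at Twist1, -0.15 at Zeb1 and -0.50 at Zeb2, and Zeb2 in SETD5-V5 cells over time was 0.012. With 5 kb windows, SETD5-V5 at Zeb2 was -0.25, Snai1 in SETD5-V5 cells over time -0.026 and Zeb1 between cell types at 48 h 0.10. With islands above the median score, Zeb1 in EV cells was 0.39 and Snai2 in SETD5-V5 cells -0.041. Without 1 library, ranges crossed 0 at Twist2 in EV cells (-0.027 to 0.19), at Twist2 (-0.035 to 0.52) and Snai2 (-0.11 to 0.16) in SETD5-V5 cells, and for SETD5-V5 at Zeb1 (-0.00459 to 4.12) and Zeb2 (-0.14 to 0.30).

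Same-lettered libraries shared no strong shift over windows, as their deviations from their group means correlated between -0.0387 and 0.114. Whether libraries of the same letter were prepared together cannot be told from this. A replicate block gave 329 windows for the interaction against 637 without it, 0 for SETD5-V5, and the same number of members called in all 6 comparisons. The 7 members with a promoter island in all 8 H3K27ac lists stayed at 7 with equal numbers of islands and with the 5' end of the gene record only.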
